A study of Ovis aries with 24 samples.

Results

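The comparison described here was made in preterm lambs, in the periventricular white matter (PVWM) that borders the fluid-filled chambers of the forebrain. The lambs were ventilated and given either surfactant with budesonide or surfactant alone. Its members were taken from the labels: 4 PVWM libraries from lambs given budesonide (animals 031, 048, 050 and 054) and 4 from lambs given surfactant alone (animals 007, 032, 049 and 051), 8 of the 24 libraries of the series. Every library came from a different animal of its tissue, so that the p-values measure the spread between animals. Both groups were mechanically ventilated and received the surfactant Poractant alpha into the trachea at 2.5 mL/kg. The budesonide group received budesonide, a synthetic glucocorticoid used as an inhaled drug, at 0.25 mg/kg in addition. Each ventilated group held 3 females of 126 days of gestation and 1 male of 127 days (animal 007 with surfactant, animal 054 with budesonide), so that sex and age coincided within them and were balanced between them. The 4 unventilated PVWM libraries (animals 057, 058, 060 and 061) came from lambs of 127 or 128 days. These were 2 labelled males, 1 labelled female and 1 of a sex not given, and their libraries serve here as a background level. The unventilated libraries were also part of the main fit. The p-values of genes therefore rest on the spread between the unventilated lambs too, and not on that of the 8 ventilated lambs alone. The title of the series speaks of injurious ventilation. Whether the ewes received steroids before delivery, and the interval between treatment and sampling, are not given in the sources used here. Where the level of a gene is given for every library, values follow the order of animals 031, 048, 050 and 054 for budesonide, 007, 032, 049 and 051 for surfactant, and 057, 058, 060 and 061 for unventilated lambs.

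Glucocorticoids act through the glucocorticoid receptor, encoded by NR3C1, which on binding the hormone enters the nucleus, raises the transcription of some genes directly and represses many inflammatory genes by interfering with NF-kB and AP-1. FKBP5, TSC22D3, PER1, KLF15 and PDK4 are among its common direct targets across tissues. Preterm white matter holds oligodendrocyte precursors that are starting to mature, astrocytes, microglia (the resident macrophages of the brain) and growing vessels, and its inflammation after preterm birth is associated with injury to the oligodendrocyte lineage.

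The libraries were of similar depth, with 16025401 to 17532605 counts per library with budesonide and 14929261 to 16425588 with surfactant alone. Between 22001 and 22356 genes had counts in each of these 8 libraries. Neither the total (exact permutation test, two-sided, p = 0.114) nor the number of genes detected (p = 0.2) differed beyond the spread, where 4 against 4 libraries can give no p below 0.0286. Marker genes were checked for brain against liver, which does not set white matter apart from other brain tissue. Summed neuronal markers held 15400 to 16900 CPM (counts per 1000000 after scaling) with budesonide and 14500 to 16700 CPM with surfactant alone. GFAP of astrocytes, at 2608 to 2886 CPM with surfactant alone and 2235 to 3326 CPM with budesonide, MBP of myelin and DCX of young neurons were all abundant, and 16 liver marker genes together held 183 to 309 CPM in the ventilated libraries. A pair of surfactant libraries stood apart from the rest of their group. Animal 051 held 5390 CPM of MBP, myelin basic protein, where the other 3 held 303 to 942 CPM, and its 33 myelin genes together reached 19500 CPM against a lowest sum of 1760 CPM in the group. Animal 049 held the most of several inflammatory and vascular transcripts, with 64 CPM of SELP, 54.4 CPM of CXCL10 and 16.5 CPM of IL1B. Results of single genes that rest on these animals are given with and without them.

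**Figure D1:**
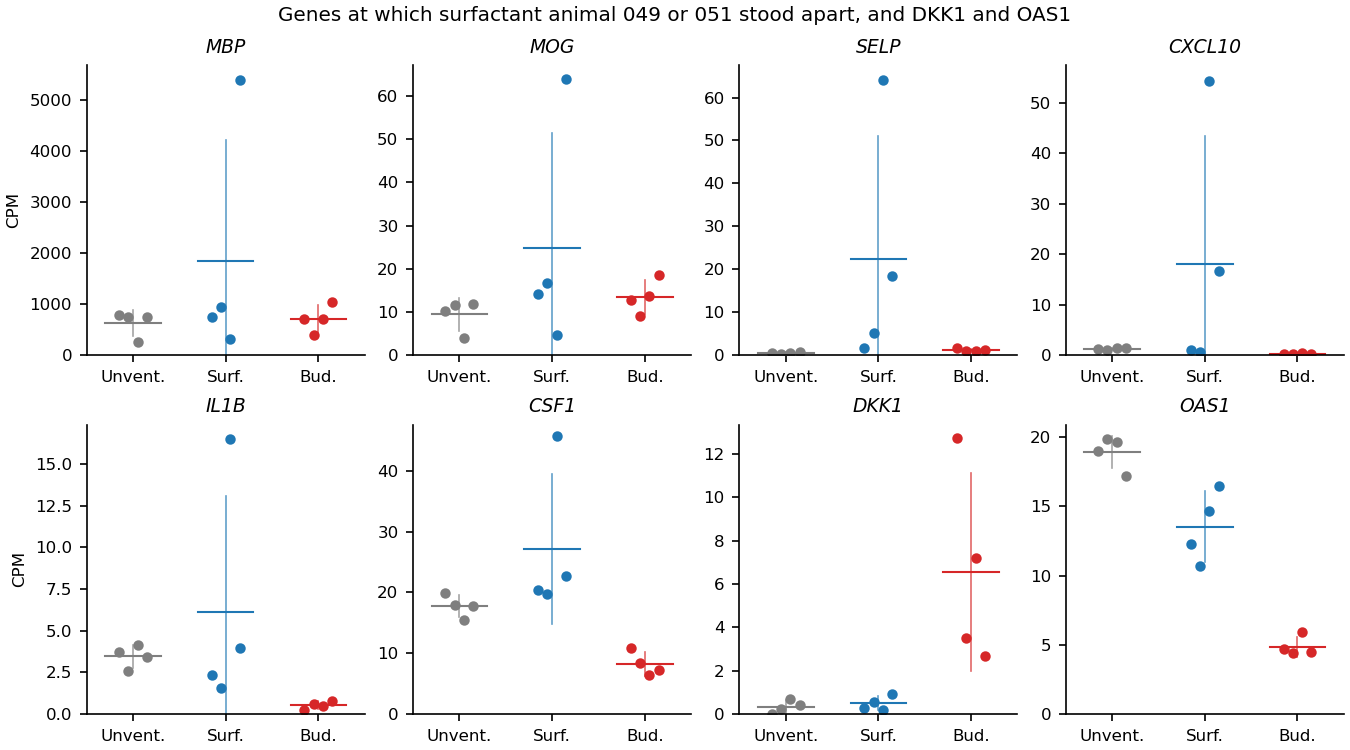
CPM of 8 genes in the 12 PVWM libraries by group (Unvent., unventilated; Surf., surfactant; Bud., budesonide plus surfactant), where each point is 1 animal, the horizontal bar the mean and the vertical bar 1 SD, drawn no lower than 0. MBP and MOG are high in surfactant animal 051, SELP, CXCL10, IL1B and CSF1 are high in surfactant animal 049, and the budesonide points of OAS1 lie below, and those of DKK1 above, all surfactant points.

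At 4 libraries a group, a small share of the genes tested in white matter passed the test. Of 18616 genes tested, 182 passed an edgeR adjusted p of 0.05, which is 0.978%. Of these, 110 were higher with budesonide (0.591%) and 72 were lower (0.387%). These shares are the background for every count of calls in a gene list below. At an unadjusted p of 0.05 (edgeR), 5.54% of all genes tested were higher and 6.37% lower. Genes that did not pass are therefore not shown to be unchanged. The calls varied in size: 39 of the 110 higher genes and 39 of the 72 lower genes differed by over 2-fold and 44 of the 182 by under 1.5-fold, with a median absolute log2 change of 0.743 for the higher and 1.06 for the lower genes. The median log2 change of all genes tested was -0.01. CPM ranges of the 2 groups did not overlap for 180 of the 182, where 7.6% of all genes tested had ranges that did not overlap (4.02% with budesonide above and 3.58% with budesonide below). The 182 were chosen by p in the same libraries, so their separation is no further evidence. Genes named for a large change or a small p were also required to have ranges that did not overlap.

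Which genes passed depended on the libraries in the fit, and their direction did not. Leaving out surfactant animal 032 or 049 lowered the count from 182 to 115 and 113, and leaving out budesonide animal 031, 048, 050 or 054 lowered it to 78, 73, 66 and 73. With the 8 ventilated libraries alone 69 genes were called, 61 of them among the 182, and 53 of the called genes described here missed the threshold, TSC22D3, PDK4, TXNIP, IL1B and CSF1 among them. DESeq2 called 562 genes, which included all 182. All 182 kept their sign in every refit that tested them, and without surfactant animals 049 and 051 together 84 genes were called, 68 of them among the 182. Across the refits, 23 genes described here, among them FKBP5, ARRDC2, GADD45G, CSF1R, P2RY12, TMEM119, OAS1, OCLN and SLCO4A1, passed every time. Genes described here as losing their call without some single library also missed the threshold with the ventilated libraries alone. Exceptions were IFI44L, LONRF3 and SLC7A8, which passed, and CXCL10, which was not tested there. CSF1, NOTCH1, OSMR and TXNIP held their calls without each single library and missed the threshold with the ventilated libraries alone (edgeR adjusted p = 0.0503 to 0.0598). These genes, and CX3CR1, GREM1, ID1, NIPBL, NUDT7, SASH3, SETD7, SYK and TACC1, held without each single library and missed it with sex as a covariate too (edgeR adjusted p = 0.0531 to 0.0858).

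**Figure D2:**
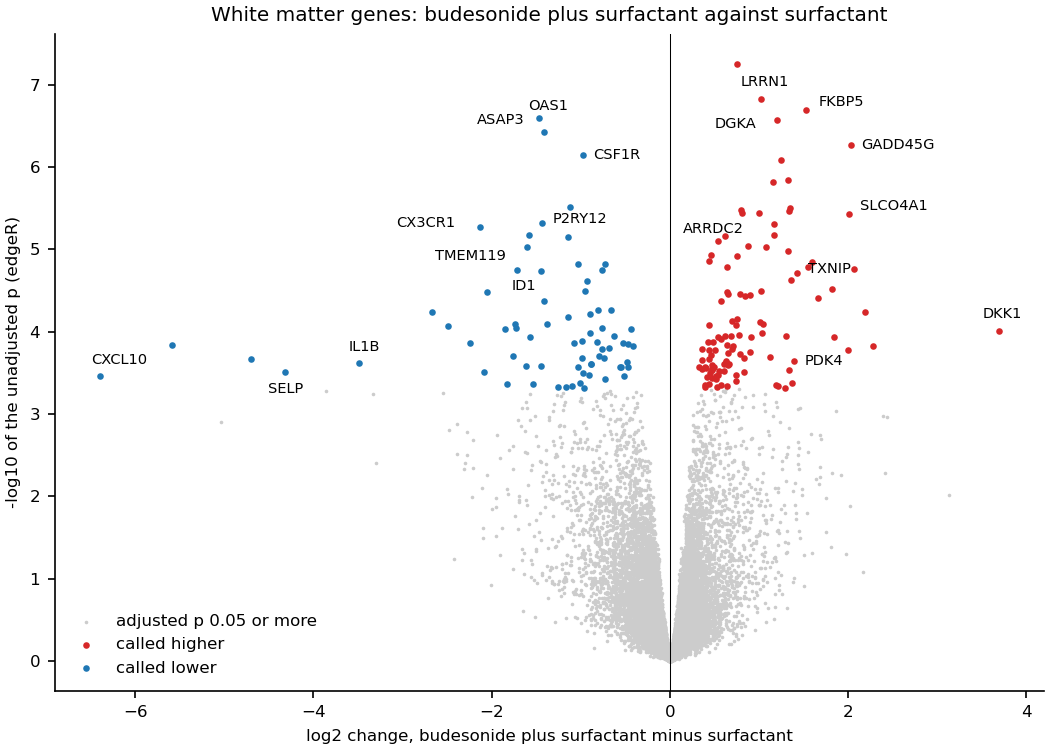
Log2 change (horizontal axis, budesonide plus surfactant minus surfactant) and -log10 of the unadjusted edgeR p (vertical axis) of the 18616 genes tested in PVWM. The 110 genes called higher are red and the 72 called lower are blue, with FKBP5, LRRN1, DGKA and GADD45G high on the right and OAS1, ASAP3 and CSF1R high on the left.

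Some glucocorticoid-responsive genes were higher with budesonide. Of 47 tested members of a list of such genes, 9 were called higher (FKBP5, ARRDC2, TXNIP, KLF15, TSC22D3, PDK4, USP54, NEDD9 and TIPARP) and 0 lower, with a list median log2 change of 0.10. The other 38 members did not pass the edgeR test, and at an unadjusted p of 0.05 the list held 14 higher and 3 lower. Of all 18616 genes tested, 1032 were higher and 1185 lower at that unadjusted p, which is 5.54% and 6.37%. Of the list, 27 members had a positive and 20 a negative change. The list was chosen with earlier results of these data known, so its counts are no independent test of a glucocorticoid response. FKBP5, a cochaperone that lowers the hormone affinity of the glucocorticoid receptor, was measured at 478, 428, 401 and 417 CPM with budesonide, 139, 113, 164 and 183 CPM with surfactant alone and 17.2, 20.4, 14.1 and 21.8 CPM in unventilated lambs. Every budesonide library held more FKBP5 than any surfactant library, and every surfactant library more than any unventilated one. FKBP5 rose by 1.52 ± 0.15 on the log2 scale (SE, edgeR adjusted p = 0.000983), with a log2 change of 2.42 (edgeR adjusted p = 0.00168) in liver. TSC22D3, which encodes the anti-inflammatory leucine zipper protein GILZ, was at 285, 266, 366 and 289 CPM with budesonide, 168, 180.4, 188 and 245 CPM with surfactant alone and 126, 137, 133 and 119.9 CPM in unventilated lambs. The ranges of the ventilated groups did not overlap, but surfactant animal 051 came close to the lowest budesonide animal. TSC22D3 rose by 0.63 ± 0.12 on the log2 scale (SE, edgeR adjusted p = 0.034). KLF15, a transcription factor that directs amino acid and lipid use, stood at 42.1, 36.4, 51.9 and 39.99 CPM with budesonide, 24.8, 20.2, 28.2 and 28.6 CPM with surfactant alone and 16.3, 15.9, 13.7 and 14.9 CPM in unventilated lambs. Its lowest budesonide value lay above its highest surfactant value. KLF15 rose by 0.74 ± 0.13 on the log2 scale (SE, edgeR adjusted p = 0.0215). ARRDC2, an alpha-arrestin related to TXNIP, was measured at 96.3, 88.4, 102 and 119 CPM with budesonide, 47.3, 35.4, 39.3 and 57.8 CPM with surfactant alone and 11.2, 8.47, 7.46 and 8.73 CPM in unventilated lambs. Its groups were fully separated in steps from unventilated to surfactant to budesonide. ARRDC2 rose by 1.17 ± 0.16 on the log2 scale (SE, edgeR adjusted p = 0.0046).

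A further 3 members were called with changes under 1 on the log2 scale. NEDD9, a scaffold protein of integrin signalling, averaged 57.3 ± 9.82 CPM with budesonide and 32.1 ± 5.15 CPM with surfactant alone (SD, n = 4 each), and TIPARP, a mono-ADP-ribosyltransferase, averaged 134 ± 29.8 CPM with budesonide and 80.6 ± 13.1 CPM with surfactant alone (SD, n = 4 each). NEDD9 rose by 0.83 ± 0.17 on the log2 scale (SE, edgeR adjusted p = 0.038), and TIPARP rose by 0.74 ± 0.15 (edgeR adjusted p = 0.0397). USP54, of the ubiquitin-specific protease family, rose by a log2 change of 0.40 ± 0.08 (SE, edgeR adjusted p = 0.0361), from 125 ± 12.6 to 166 ± 8.53 CPM (SD, n = 4 each). Several familiar targets did not pass the test. PER1, a clock gene with a well-known glucocorticoid response element, was at 116, 101, 114 and 116 CPM with budesonide, 80.4, 75.7, 94.7 and 73.4 CPM with surfactant alone and 53.8, 53.4, 42.8 and 47.2 CPM in unventilated lambs, with ranges that did not overlap, and missed the threshold. PER1 had a fitted log2 change of 0.46 ± 0.10 (SE, edgeR adjusted p = 0.0507). It passed in 5 of 19 refits. Among these were DESeq2 and the fits without surfactant animal 049 or unventilated animal 057 or 060 (edgeR adjusted p = 0.0244, 0.0436 and 0.0487). ZBTB16, a zinc finger repressor, stood at 56.5, 60.1, 67.9 and 70.7 CPM with budesonide, 36.6, 38.1, 37.8 and 30.9 CPM with surfactant alone and 17.4, 23.3, 7.08 and 14.6 CPM in unventilated lambs, and its budesonide range also lay above the surfactant range. ZBTB16 had a fitted log2 change of 0.83 ± 0.24 (SE, edgeR adjusted p = 0.146). ZBTB16 passed in 4 of 19 refits. Among these were DESeq2, the 8 ventilated libraries alone and the fit without unventilated animal 060 (edgeR adjusted p = 0.0133 and 0.0189 for the last pair). SGK1, a kinase of sodium transport, DUSP1, a phosphatase of MAP kinases, and KLF9, a transcription factor, overlapped between the ventilated groups. SGK1 had a fitted log2 change of -0.09 ± 0.16 (SE, edgeR adjusted p = 0.897), DUSP1 had a change of 0.25 ± 0.24 (edgeR adjusted p = 0.763) and KLF9 had a change of 0.10 ± 0.24 (edgeR adjusted p = 0.931). GLUL, glutamine synthetase (log2 change 0.05 ± 0.16, edgeR adjusted p = 0.945), CDKN1A, the cell cycle inhibitor p21 (log2 change -0.12 ± 0.42, edgeR adjusted p = 0.957), ANGPTL4, an inhibitor of lipoprotein lipase (log2 change -0.34 ± 0.21, edgeR adjusted p = 0.574), and MFSD2A, the lipid transporter of brain endothelium (log2 change -0.36 ± 0.20, edgeR adjusted p = 0.529), were not called by edgeR either. Without surfactant animals 049 and 051 together MFSD2A passed, with a log2 change of -0.72 (edgeR adjusted p = 0.0439).

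The number of glucocorticoid-responsive genes called fell from 9 to between 3 and 5 without surfactant animal 007 or 032, budesonide animal 031, 050 or 054, or unventilated animal 061, and to 5 without surfactant animals 049 and 051 together. The TSC22D3 call was lost without surfactant animals 007, 032 and 049, budesonide animals 031, 048, 050 and 054 and unventilated animal 061, each left out in turn (edgeR adjusted p = 0.0515 to 0.0851). The KLF15 call was lost without budesonide animals 031 and 050, each left out in turn (edgeR adjusted p = 0.0538 to 0.0596). The NEDD9 call was lost without surfactant animals 007, 032, 049 and 051, budesonide animals 031, 048, 050 and 054 and unventilated animals 058 and 061, each left out in turn (edgeR adjusted p = 0.0512 to 0.113), and without surfactant animals 049 and 051 together (log2 change 0.89, edgeR adjusted p = 0.154). The TIPARP call was lost without surfactant animals 007, 032, 049 and 051, budesonide animals 031, 050 and 054 and unventilated animals 058, 060 and 061, each left out in turn (edgeR adjusted p = 0.0502 to 0.101), and without surfactant animals 049 and 051 together (log2 change 0.95, edgeR adjusted p = 0.0521). The USP54 call was lost without surfactant animals 032 and 049, budesonide animals 031, 048, 050 and 054 and unventilated animals 060 and 061, each left out in turn (edgeR adjusted p = 0.0588 to 0.107), and without surfactant animals 049 and 051 together (log2 change 0.41, edgeR adjusted p = 0.126). FKBP5 and ARRDC2 were called without every single library. With the 8 ventilated libraries alone 3 genes of the list were called, FKBP5, ARRDC2 and ZBTB16. TXNIP, PDK4, NEDD9, USP54, TSC22D3 and TIPARP missed the threshold there (edgeR adjusted p = 0.0503, 0.0503, 0.0574, 0.0892, 0.0999 and 0.12).

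**Figure D3:**
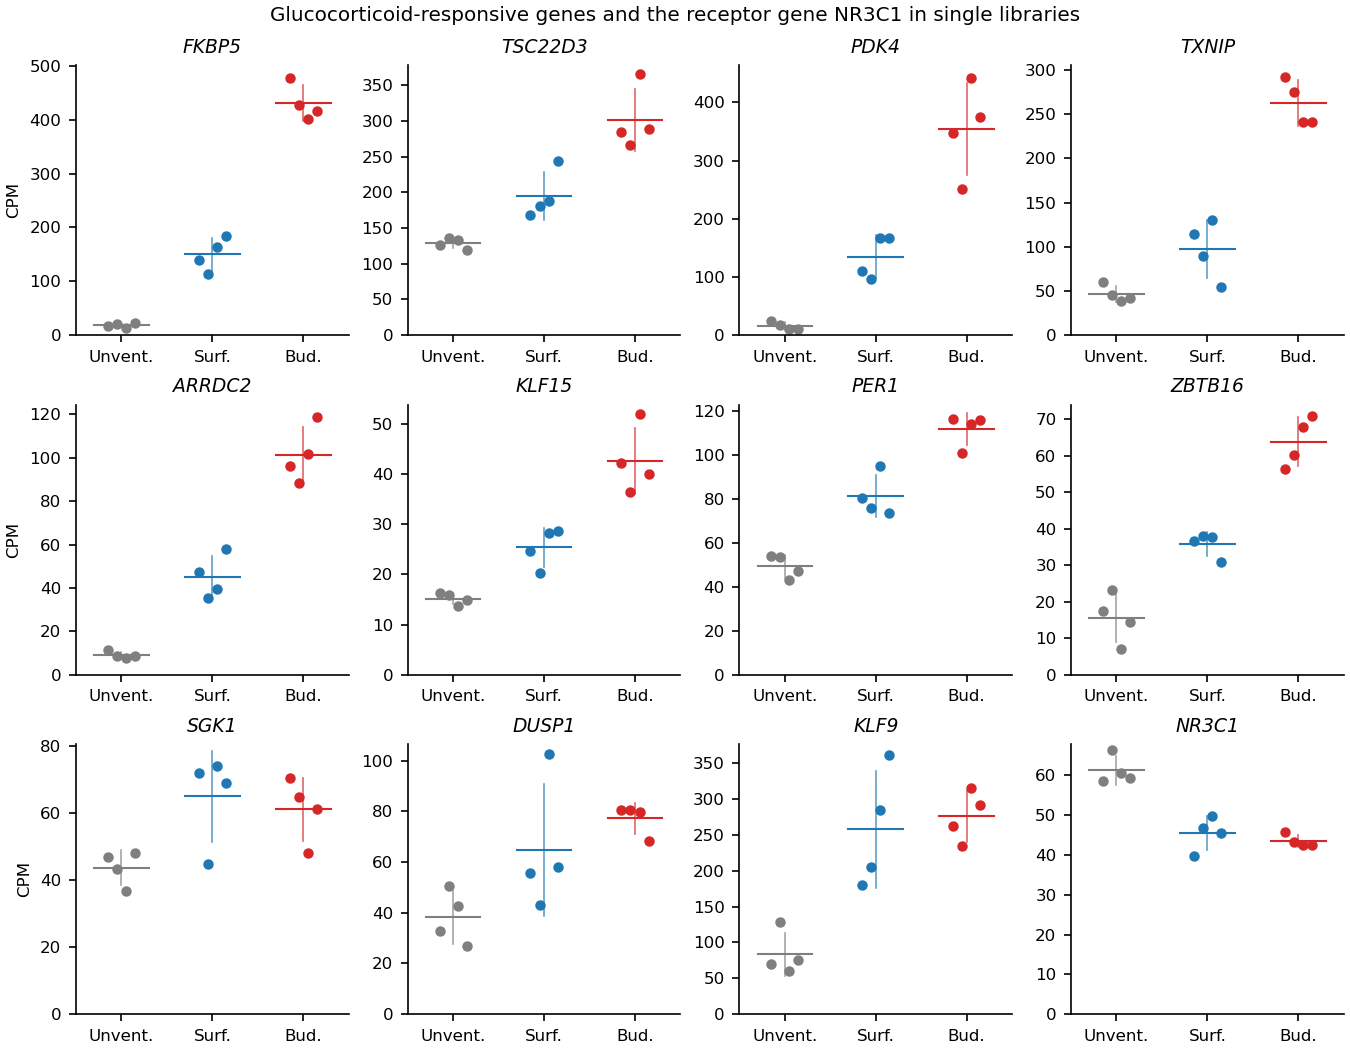
CPM of 11 glucocorticoid-responsive genes and of the receptor gene NR3C1 in the 12 PVWM libraries, where each point is 1 animal, the horizontal bar the group mean and the vertical bar 1 SD. The means of FKBP5, ARRDC2, PDK4 and TXNIP step up from unventilated to surfactant to budesonide animals, while SGK1, KLF9 and NR3C1 overlap between the ventilated groups.

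The unventilated libraries were also compared with each ventilated group in the same fit, which called 382 genes for surfactant against unventilated (2.05%) and 1501 for budesonide against unventilated (8.06%). These comparisons share libraries with the main one, so their values are given side by side only. FKBP5 differed from unventilated lambs by a log2 change of 3.03 with surfactant alone and 4.55 with budesonide (edgeR adjusted p = 2.45e-06 and 3.16e-08). PDK4 differed by 3.12 and 4.51, ARRDC2 by 2.32 and 3.50, and PLA1A by 1.89 and 3.05. KLF9 differed by 1.63 and 1.72, values that lay close together.

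The receptor genes themselves did not pass the test. NR3C1 was measured at 45.8, 43.2, 42.6 and 42.6 CPM with budesonide, 39.9, 46.8, 49.9 and 45.4 CPM with surfactant alone and 58.6, 66.5, 60.7 and 59.3 CPM in unventilated lambs, with ranges of the ventilated groups that overlapped. NR3C1 had a fitted log2 change of -0.06 ± 0.08 (SE, edgeR adjusted p = 0.834). NR3C2, the mineralocorticoid receptor (log2 change -0.37 ± 0.25, edgeR adjusted p = 0.639), and HSD11B1, the enzyme that regenerates cortisol from cortisone (log2 change -0.25 ± 0.23, edgeR adjusted p = 0.746), were not called by edgeR, and HSD11B2, which inactivates cortisol, had 0 to 4 counts per ventilated library and was not tested. Of 18 tested genes of steroid receptors and corticosteroid handling, 0 were called by edgeR, where 1 was higher and 2 were lower at an unadjusted p of 0.05. ABCB1, the drug efflux pump of the blood-brain barrier that also exports glucocorticoids, had log2 change 0.34 ± 0.22, edgeR adjusted p = 0.608.

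Genes of fuel use were called singly and in both directions. PDK4, the kinase that switches off pyruvate dehydrogenase and so spares glucose, was at 347, 252, 442 and 375 CPM with budesonide, 110.3, 95.7, 167 and 167 CPM with surfactant alone and 24.6, 16.8, 9.84 and 10.8 CPM in unventilated lambs. Budesonide animal 048 was the lowest of its group and still lay above all surfactant animals. PDK4 rose by 1.39 ± 0.27 on the log2 scale (SE, edgeR adjusted p = 0.0341). The PDK4 call was lost without surfactant animals 007, 032 and 049 and budesonide animals 031, 050 and 054, each left out in turn (edgeR adjusted p = 0.0508 to 0.0951), and without surfactant animals 049 and 051 together (log2 change 1.78, edgeR adjusted p = 0.0549). TXNIP, the thioredoxin-interacting protein that limits glucose uptake, stood at 293, 275, 241 and 242 CPM with budesonide, 115, 89.96, 130.4 and 55 CPM with surfactant alone and 60.3, 44.9, 38.8 and 42.5 CPM in unventilated lambs. The 4 budesonide values lay close together, while the surfactant values spread widely. TXNIP rose by 1.43 ± 0.22 on the log2 scale (SE, edgeR adjusted p = 0.00835). Of 34 tested genes of pyruvate dehydrogenase and fatty acid oxidation 1 was called higher, PDK4, and 1 lower, ACSL5, a ligase that activates long-chain fatty acids. ACSL5 averaged 1.92 ± 0.66 CPM with budesonide and 5.89 ± 2.35 CPM with surfactant alone (SD, n = 4 each). ACSL5 fell by 1.62 ± 0.32 on the log2 scale (SE, edgeR adjusted p = 0.0355). The ACSL5 call was lost without surfactant animals 049 and 051, budesonide animals 031, 048, 050 and 054 and unventilated animal 061, each left out in turn (edgeR adjusted p = 0.0516 to 0.0905), and without surfactant animals 049 and 051 together (log2 change -1.22, edgeR adjusted p = 0.197). Of 11 genes of TXNIP and the alpha-arrestins 2 were called higher and 1 lower, MLXIPL, which encodes the glucose-sensing factor ChREBP and averaged 0.772 ± 0.19 CPM with budesonide and 2.31 ± 0.441 CPM with surfactant alone (SD, n = 4 each). MLXIPL fell by 1.57 ± 0.29 on the log2 scale (SE, edgeR adjusted p = 0.0246). The MLXIPL call was lost without surfactant animals 007 and 049 and budesonide animals 031, 048, 050 and 054, each left out in turn (edgeR adjusted p = 0.0534 to 0.0831), and without surfactant animals 049 and 051 together (log2 change -1.58, edgeR adjusted p = 0.113).

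SLC37A4, the transporter that carries glucose-6-phosphate into the endoplasmic reticulum, was measured at 61.5, 70.7, 90.2 and 76.2 CPM with budesonide, 32.5, 21.8, 25.8 and 36.9 CPM with surfactant alone and 15.3, 14, 10.4 and 14.9 CPM in unventilated lambs. Even the lowest budesonide animal held more than the highest surfactant animal. SLC37A4 rose by 1.35 ± 0.17 on the log2 scale (SE, edgeR adjusted p = 0.00386). EPHX2, the soluble epoxide hydrolase that degrades epoxides of polyunsaturated fatty acids, was at 14.3, 12.9, 18.6 and 10.8 CPM with budesonide, 5.76, 6.18, 4.92 and 5.62 CPM with surfactant alone and 8.22, 9.12, 7.27 and 6.56 CPM in unventilated lambs. All surfactant values lay below the unventilated ones, and all budesonide values above them. EPHX2 rose by 1.33 ± 0.17 on the log2 scale (SE, edgeR adjusted p = 0.00386). NUDT7, a peroxisomal hydrolase of coenzyme A, averaged 5.13 ± 1.24 CPM with budesonide and 1.74 ± 0.414 CPM with surfactant alone (SD, n = 4 each). NUDT7 rose by 1.55 ± 0.23 on the log2 scale (SE, edgeR adjusted p = 0.00806). The NUDT7 call held without each single library, but was lost with ventilated libraries alone and sex as a covariate (edgeR adjusted p = 0.0712). It was lost without surfactant animals 049 and 051 together, where the log2 change was 1.54 (edgeR adjusted p = 0.0705). INSR, the insulin receptor, rose by a log2 change of 0.51 ± 0.10 (SE, edgeR adjusted p = 0.0287), from 80.3 ± 11 to 114 ± 9.85 CPM (SD, n = 4 each), as 1 of 38 tested genes of the insulin and growth factor axis, where 0 were lower. The INSR call was lost without surfactant animals 007, 032 and 051, budesonide animals 031, 048, 050 and 054 and unventilated animal 061, each left out in turn (edgeR adjusted p = 0.0516 to 0.076).

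INSIG1, which holds the sterol sensor SCAP in the endoplasmic reticulum, stood at 39, 29.4, 37.9 and 43.7 CPM with budesonide, 50.8, 77.2, 65.8 and 68.2 CPM with surfactant alone and 49, 54.8, 53.5 and 46.6 CPM in unventilated lambs. Every budesonide animal lay below every surfactant animal, and below every unventilated animal. INSIG1 fell by 0.80 ± 0.14 on the log2 scale (SE, edgeR adjusted p = 0.0173). It was 1 of 2 lower calls among 29 tested genes of sterol synthesis and uptake, of which 0 were higher, with a median log2 change of -0.13. The INSIG1 call was lost without budesonide animal 050 (edgeR adjusted p = 0.0599). It did not pass without surfactant animals 049 and 051 together (edgeR adjusted p = 0.104). Among 24 genes of fatty acid synthesis, 20 of oxidative phosphorylation, 49 of cytosolic ribosomal proteins, 40 of hypoxia and glycolysis, 28 of the unfolded protein response, 27 of NRF2 and antioxidant defence and 24 of heat shock, edgeR called 0. At an unadjusted p of 0.05 these lists held 1, 0, 0, 2, 0, 2 and 0 higher genes and 5, 1, 0, 2, 6, 1 and 4 lower genes, where 5.54% of all genes were higher and 6.37% lower.

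GADD45G and BTG1, both genes of growth arrest, rose. GADD45G, a stress-inducible regulator of cell cycle arrest, was measured at 22.4, 25.2, 34.6 and 24.9 CPM with budesonide, 6.37, 3.98, 7.55 and 8.36 CPM with surfactant alone and 2.70, 4.24, 3.20 and 4.03 CPM in unventilated lambs. The lowest budesonide animal lay far above the highest surfactant animal. GADD45G rose by 2.03 ± 0.22 on the log2 scale (SE, edgeR adjusted p = 0.00142). BTG1, an antiproliferative gene that is a common glucocorticoid target in lymphocytes, was at 149, 149, 120.5 and 143 CPM with budesonide, 80.6, 70.4, 86 and 83.5 CPM with surfactant alone and 48.1, 61.9, 53.3 and 62.8 CPM in unventilated lambs. The budesonide and surfactant values were each tightly grouped and apart. BTG1 rose by 0.81 ± 0.10 on the log2 scale (SE, edgeR adjusted p = 0.00386). They were the 2 higher calls among 33 tested cell cycle inhibitors and p53 or apoptosis genes, of which 0 were lower, and both were called without every single library. Of 44 tested genes of the cell cycle and proliferation edgeR called 0, with 5 higher and 2 lower at an unadjusted p of 0.05 and DESeq2 calling 2 higher, and the median log2 change was 0.09. MKI67, the marker of dividing cells, had log2 change 0.29 ± 0.14, edgeR adjusted p = 0.444.

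Several markers of microglia were lower with budesonide, among them genes that mark homeostatic microglia. Of 28 tested microglia and macrophage markers, 6 were called lower (CSF1R, P2RY12, CX3CR1, TMEM119, FCER1G and LAPTM5) and 0 higher, and the median log2 change was -0.37 against -0.01 over all genes. The budesonide and surfactant ranges did not overlap in 10 of the 28, all with budesonide below. Over all genes tested, 0.387% were called lower and 3.58% had ranges with budesonide below. At an unadjusted p of 0.05 the list held 13 lower and 1 higher, beside 6.37% and 5.54% of all genes. A positive log2 change was fitted for 6 of the 28, the largest at 0.93. CX3CR1, the receptor through which microglia sense neuronal fractalkine, stood at 3.72, 6.43, 6.87 and 11.7 CPM with budesonide, 32.5, 30.9, 42.9 and 19.5 CPM with surfactant alone and 52.8, 52.2, 50.7 and 55.7 CPM in unventilated lambs. Its highest budesonide value, in animal 054, lay below its lowest surfactant value, in animal 051. CX3CR1 fell by 2.13 ± 0.29 on the log2 scale (SE, edgeR adjusted p = 0.00468). With the ventilated libraries alone and sex as a covariate it missed the threshold (edgeR adjusted p = 0.0534). P2RY12, the purine receptor that guides microglial processes, was measured at 9.41, 15.9, 17.3 and 14.4 CPM with budesonide, 49.3, 33.1, 37.2 and 34.9 CPM with surfactant alone and 32.6, 44.6, 49.4 and 43.5 CPM in unventilated lambs. Surfactant and unventilated animals overlapped, and all budesonide animals lay below both. P2RY12 fell by 1.44 ± 0.19 on the log2 scale (SE, edgeR adjusted p = 0.0046). TMEM119, a membrane protein that separates microglia from other macrophages, was at 7.55, 10.1, 6.81 and 7.92 CPM with budesonide, 36.8, 20.02, 24.9 and 16.9 CPM with surfactant alone and 29.2, 23, 20.1 and 28.5 CPM in unventilated lambs. The surfactant values spread from 16.9 to 36.8 CPM, and the budesonide values were all below them. TMEM119 fell by 1.60 ± 0.23 on the log2 scale (SE, edgeR adjusted p = 0.00605).

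CSF1R, the receptor on which the survival of microglia depends, stood at 34.6, 29, 39.8 and 36.7 CPM with budesonide, 70.4, 65.3, 80.2 and 60.8 CPM with surfactant alone and 68.8, 65.6, 76.1 and 66.9 CPM in unventilated lambs. Its 3 groups showed a level near that of unventilated lambs with surfactant alone and a lower one with budesonide. CSF1R fell by 0.98 ± 0.11 on the log2 scale (SE, edgeR adjusted p = 0.00165). CSF1, a ligand of that receptor, was measured at 10.9, 8.34, 6.47 and 7.29 CPM with budesonide, 20.4, 19.8, 45.6 and 22.7 CPM with surfactant alone and 19.9, 17.9, 15.4 and 17.7 CPM in unventilated lambs. Surfactant animal 049 held by far the most, and the other 3 surfactant animals still lay above all budesonide animals. CSF1 fell by 1.71 ± 0.26 on the log2 scale (SE, edgeR adjusted p = 0.00806), and without surfactant animals 049 and 051 together it was -1.28 (edgeR adjusted p = 0.0117). FCER1G, the shared signalling chain of Fc receptors, averaged 4.55 ± 0.632 CPM with budesonide and 9.30 ± 3.16 CPM with surfactant alone (SD, n = 4 each), and LAPTM5, a lysosomal protein of blood-lineage cells, averaged 46 ± 4.78 CPM with budesonide and 66 ± 8.65 CPM with surfactant alone (SD, n = 4 each). FCER1G fell by 1.03 ± 0.21 on the log2 scale (SE, edgeR adjusted p = 0.0355), and LAPTM5 fell by 0.52 ± 0.11 (edgeR adjusted p = 0.0401).

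The other 22 markers of the list did not pass the test. AIF1, which encodes the microglial protein IBA1, was at 9.18, 9.21, 8.78 and 10.8 CPM with budesonide, 8.86, 7.04, 9.37 and 8.43 CPM with surfactant alone and 7.30, 5.78, 6.27 and 6.87 CPM in unventilated lambs, with overlapping ranges. AIF1 had a fitted log2 change of 0.17 ± 0.13 (SE, edgeR adjusted p = 0.683). Summed over all list genes in the table, microglia and macrophage markers held 344 to 389 CPM with budesonide, 427 to 626 CPM with surfactant alone and 506 to 534 CPM in unventilated lambs, and the ranges of the ventilated groups did not overlap. That sum includes the 6 genes called lower, so it gives no separate evidence on the other 22. In bulk tissue, fewer microglia and less of these transcripts per microglia cannot be told apart. The FCER1G call was lost without surfactant animals 049 and 051, budesonide animals 031, 048, 050 and 054 and unventilated animals 058, 060 and 061, each left out in turn (edgeR adjusted p = 0.052 to 0.113), and without surfactant animals 049 and 051 together (log2 change -0.65, edgeR adjusted p = 0.173). The LAPTM5 call was lost without surfactant animals 007, 049 and 051, budesonide animals 031, 048, 050 and 054 and unventilated animals 060 and 061, each left out in turn (edgeR adjusted p = 0.0642 to 0.123), and without surfactant animals 049 and 051 together (log2 change -0.42, edgeR adjusted p = 0.271). The number of lower calls stayed between 4 and 7 when single libraries were left out, 2 markers were called higher without surfactant animal 049, and 4 were called lower without surfactant animals 049 and 051 together. Of 10 tested neutrophil and monocyte markers and 7 lymphocyte markers edgeR called 0, also at an unadjusted p of 0.05, and their summed levels overlapped between the ventilated groups (105 to 210 against 85.3 to 206 CPM, and 20.2 to 31.2 against 19.7 to 22.3 CPM). The neutrophil and monocyte list includes VCAN, which is also in the list of oligodendrocyte precursor markers, and its part in that sum was not tested.

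**Figure D4:**
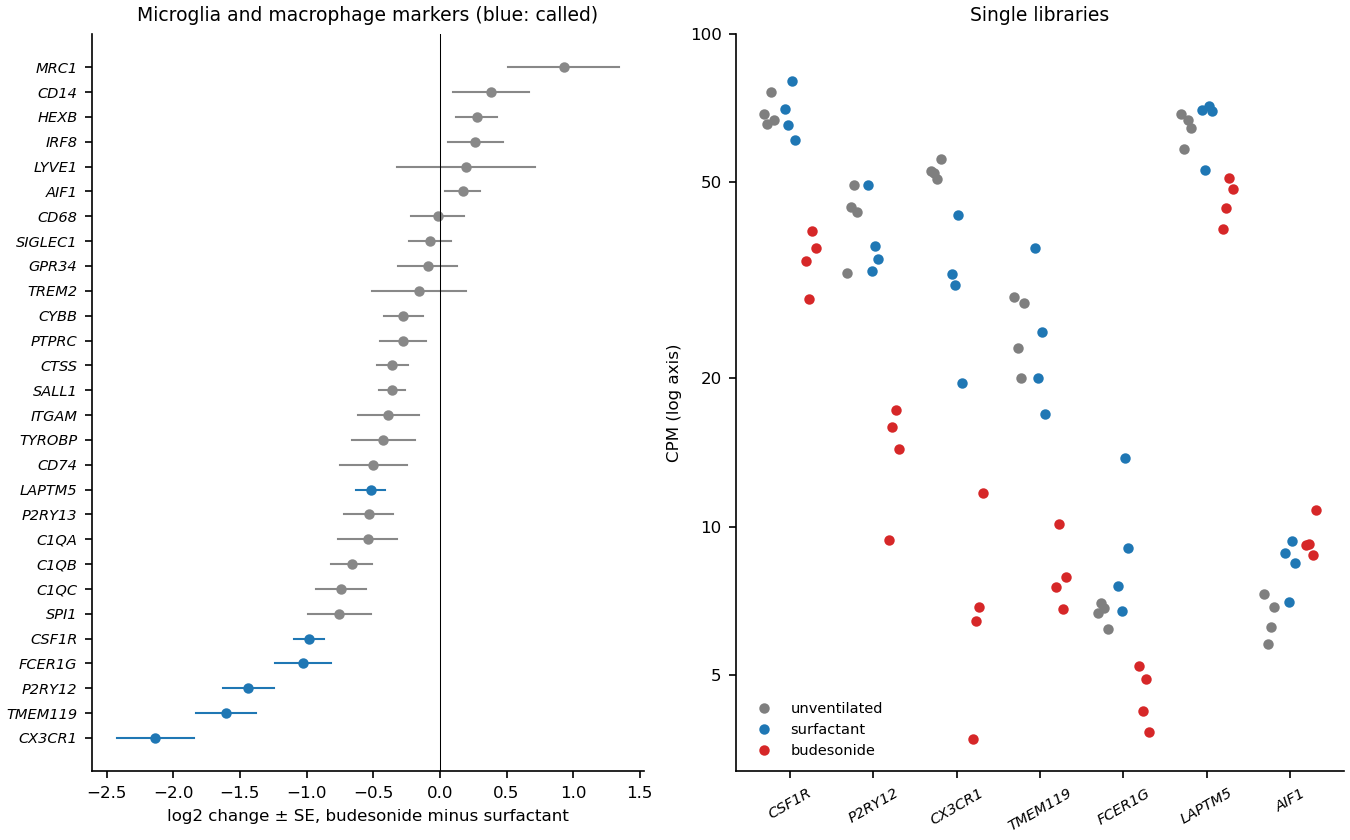
Left, log2 change ± SE (budesonide minus surfactant) of the 28 tested microglia and macrophage markers, with the 6 called lower in blue and genes not called in grey. Right, CPM on a log axis of those 6 and of AIF1 in each of the 12 libraries, where budesonide points lie below surfactant points for the 6 called genes and among them for AIF1.

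CYTH4, SASH3 and C5AR2 fell and SYK rose. CYTH4, an exchange factor for ARF GTPases found in leukocytes, stood at 4.41, 3.36, 4.73 and 4.78 CPM with budesonide, 11.3, 8.14, 10.5 and 8.30 CPM with surfactant alone and 14.5, 11.9, 14.7 and 12.6 CPM in unventilated lambs. SASH3, a signalling adaptor of lymphoid cells, was measured at 1.57, 1.04, 1.27 and 1.19 CPM with budesonide, 3.70, 2.82, 5.26 and 3.56 CPM with surfactant alone and 4.23, 4.17, 4.70 and 4.09 CPM in unventilated lambs. Both were separated between the ventilated groups. CYTH4 fell by 1.15 ± 0.16 on the log2 scale (SE, edgeR adjusted p = 0.0053), and SASH3 fell by 1.59 ± 0.22 (edgeR adjusted p = 0.0053). C5AR2, a receptor for the complement fragment C5a, averaged 0.83 ± 0.388 CPM with budesonide and 3.48 ± 0.966 CPM with surfactant alone (SD, n = 4 each). C5AR2 fell by 2.06 ± 0.33 on the log2 scale (SE, edgeR adjusted p = 0.0123). The C5AR2 call was lost without budesonide animal 050 (edgeR adjusted p = 0.0542), and without surfactant animals 049 and 051 together (log2 change -1.67, edgeR adjusted p = 0.0984). With the 8 ventilated libraries alone C5AR2 missed the threshold too (edgeR adjusted p = 0.0586). SYK, a tyrosine kinase downstream of immune receptors, went the other way and was at 15.2, 16.3, 20.1 and 18 CPM with budesonide, 4.19, 3.43, 7.28 and 8.11 CPM with surfactant alone and 4.97, 3.72, 4.39 and 4.71 CPM in unventilated lambs. All budesonide animals held at least 15.2 CPM and no surfactant animal over 8.11 CPM. SYK rose by 1.60 ± 0.24 on the log2 scale (SE, edgeR adjusted p = 0.00775). The part of cell numbers in these changes was not tested.

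Of the interferon-stimulated genes 5 were called lower, and all but OAS1 lost the call when some single libraries were left out. Of 40 tested members, 5 were called lower (OAS1, MX1, IFI44L, IFI44 and CXCL10) and 0 higher, with a median log2 change of -0.45. At an unadjusted p of 0.05, 18 were lower and 2 higher, beside 6.37% and 5.54% of all genes. OAS1, an enzyme that activates RNase L in response to double-stranded RNA and belongs to a multigene family whose reads the counting could have split, stood at 4.70, 4.40, 5.95 and 4.46 CPM with budesonide, 12.3, 10.7, 14.7 and 16.5 CPM with surfactant alone and 19, 19.8, 19.6 and 17.2 CPM in unventilated lambs. All budesonide animals lay well below all surfactant animals. OAS1 fell by 1.47 ± 0.15 on the log2 scale (SE, edgeR adjusted p = 0.000983), and it was called without every single library and without animals 049 and 051 together. MX1, an antiviral GTPase, was measured at 10.3, 13.9, 12.1 and 10.5 CPM with budesonide, 23.1, 18.8, 20.3 and 17.5 CPM with surfactant alone and 27.7, 22.5, 20.5 and 21 CPM in unventilated lambs, and MX1 fell by 0.76 ± 0.14 (edgeR adjusted p = 0.0226). IFI44 and IFI44L averaged 0.706 ± 0.171 CPM with budesonide and 2.42 ± 0.946 CPM with surfactant alone (SD, n = 4 each) and 0.724 ± 0.101 CPM with budesonide and 2.63 ± 0.883 CPM with surfactant alone (SD, n = 4 each). IFI44 fell by 1.76 ± 0.34 on the log2 scale (SE, edgeR adjusted p = 0.0319), and IFI44L fell by 1.85 ± 0.33 (edgeR adjusted p = 0.0227). IFI16, a DNA sensor, averaged 0.884 ± 0.419 CPM with budesonide and 2.97 ± 0.61 CPM with surfactant alone (SD, n = 4 each), and IFI16 fell by 1.74 ± 0.31 (edgeR adjusted p = 0.0215). The count of 5 fell to 1, 1, 2, 1 and 1 without surfactant animal 049 and budesonide animals 031, 048, 050 and 054 in turn, to 3 without unventilated animal 061, and to 1, OAS1, without surfactant animals 049 and 051 together. The MX1 call was lost without surfactant animal 049 and budesonide animals 031, 050 and 054, each left out in turn (edgeR adjusted p = 0.0508 to 0.077), and without surfactant animals 049 and 051 together (log2 change -0.84, edgeR adjusted p = 0.0639). The IFI44 call was lost without surfactant animals 007 and 049, budesonide animals 031, 048, 050 and 054 and unventilated animal 061, each left out in turn (edgeR adjusted p = 0.0536 to 0.101), and without surfactant animals 049 and 051 together (log2 change -1.72, edgeR adjusted p = 0.117). The IFI44L call was lost without surfactant animal 049 and budesonide animals 031, 048, 050 and 054, each left out in turn (edgeR adjusted p = 0.0523 to 0.0775), and without surfactant animals 049 and 051 together (log2 change -1.59, edgeR adjusted p = 0.124). The IFI16 call was lost without surfactant animal 049 and budesonide animals 031, 050 and 054, each left out in turn (edgeR adjusted p = 0.0508 to 0.0729), and without surfactant animals 049 and 051 together (log2 change -1.70, edgeR adjusted p = 0.0827).

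CXCL10, an interferon-induced chemokine for T cells, was at 0.116, 0.174, 0.289 and 0.252 CPM with budesonide, 0.91, 0.551, 54.4 and 16.6 CPM with surfactant alone and 1.10, 0.963, 1.44 and 1.30 CPM in unventilated lambs. The surfactant level came from animals 049 and 051, and the budesonide libraries held only 2 to 5 counts each, all below the unventilated libraries. CXCL10 fell by 6.40 ± 1.33 on the log2 scale (SE, edgeR adjusted p = 0.0403), and without surfactant animals 049 and 051 together it was -1.78 (edgeR adjusted p = 0.152). The CXCL10 call was lost without surfactant animals 049 and 051, budesonide animals 031, 048, 050 and 054 and unventilated animals 057, 058, 060 and 061, each left out in turn (edgeR adjusted p = 0.0559 to 0.127).

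Genes of inflammation were called in both directions. Of 33 tested genes of cytokines and the NF-kB response, 3 were called lower (CSF1, OSMR and IL1B) and 2 higher (REL and NLRP3), and the median log2 change was -0.53, with 14 lower and 5 higher at an unadjusted p of 0.05. Of all genes, 0.387% were called lower and 0.591% higher, and 6.37% and 5.54% were lower and higher at that unadjusted p. With the 8 ventilated libraries alone, 0 of the list were called lower and 1 higher. IL1B, the cytokine interleukin 1 beta, stood at 0.232, 0.637, 0.462 and 0.818 CPM with budesonide, 2.37, 1.59, 16.5 and 3.99 CPM with surfactant alone and 3.74, 2.57, 4.14 and 3.41 CPM in unventilated lambs. Surfactant animal 049 was far above the others, and all budesonide animals lay below all surfactant and all unventilated animals. IL1B fell by 3.49 ± 0.70 on the log2 scale (SE, edgeR adjusted p = 0.0352), and without surfactant animals 049 and 051 together it was -1.87 (edgeR adjusted p = 0.0807). The IL1B call was lost without budesonide animals 031, 048, 050 and 054 and unventilated animals 060 and 061, each left out in turn (edgeR adjusted p = 0.058 to 0.107). OSMR, the receptor of oncostatin M, was measured at 18.7, 18.1, 17.3 and 16.2 CPM with budesonide, 30.8, 27.2, 48 and 30.4 CPM with surfactant alone and 16.8, 19.1, 18.7 and 17.6 CPM in unventilated lambs. Budesonide animals were at the unventilated level and surfactant animals above it. OSMR fell by 0.96 ± 0.15 on the log2 scale (SE, edgeR adjusted p = 0.0123). TNF (log2 change -0.19 ± 0.27, edgeR adjusted p = 0.856) was not called by edgeR. IL6, with 8 counts over the 4 budesonide libraries and 41 over the 4 surfactant libraries, and CXCL8, with 7 and 192 counts, did not pass the filter on low counts.

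The 2 higher calls of that list are a subunit and a sensor. REL, a subunit of NF-kB, was at 2.96, 3.77, 2.54 and 4.09 CPM with budesonide, 1.03, 0.98, 0.876 and 0.874 CPM with surfactant alone and 0.798, 0.899, 0.877 and 0.31 CPM in unventilated lambs. Its surfactant and unventilated values were all near 1 CPM or below, and each budesonide value was at least 2.54 CPM. REL rose by 1.82 ± 0.29 on the log2 scale (SE, edgeR adjusted p = 0.0121), and without surfactant animals 049 and 051 together it was 1.72 (edgeR adjusted p = 0.104). NLRP3, the sensor of the inflammasome that matures interleukin 1 beta, stood at 9.47, 10.2, 14.6 and 11.4 CPM with budesonide, 6.13, 4.29, 4.78 and 7.11 CPM with surfactant alone and 5.15, 4.24, 4.07 and 4.52 CPM in unventilated lambs. The lowest budesonide animal lay above the highest surfactant animal. NLRP3 rose by 1.03 ± 0.19 on the log2 scale (SE, edgeR adjusted p = 0.0245). The NLRP3 call was lost without surfactant animals 032 and 049 and budesonide animals 050 and 054, each left out in turn (edgeR adjusted p = 0.0576 to 0.0724), and without surfactant animals 049 and 051 together (log2 change 1.13, edgeR adjusted p = 0.066). Of 37 immediate early genes 1 was called lower, IER2, with log2 change -0.82 ± 0.15, edgeR adjusted p = 0.0265, and 0 were higher, and the median log2 change was -0.29. The IER2 call was lost without surfactant animals 049 and 051 and budesonide animals 031, 048, 050 and 054, each left out in turn (edgeR adjusted p = 0.0529 to 0.0888), and without surfactant animals 049 and 051 together (log2 change -0.54, edgeR adjusted p = 0.189).

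OCLN and APCDD1 rose among the vessel genes. Of 33 tested endothelial and blood-brain barrier genes, 2 were called higher (OCLN and APCDD1) and 0 lower, with a median log2 change of -0.27 and 12 lower against 5 higher at an unadjusted p of 0.05. Without surfactant animal 051, 3 were called lower. Of all genes, 0.591% were called higher and 0.387% lower, and 5.54% and 6.37% were higher and lower at an unadjusted p of 0.05. OCLN, the tight junction protein occludin, was measured at 33.5, 27.5, 30.7 and 22.3 CPM with budesonide, 14.6, 13.8, 12.6 and 15.9 CPM with surfactant alone and 16, 19.3, 16.3 and 15.8 CPM in unventilated lambs. Each budesonide animal held more than every surfactant and every unventilated animal. OCLN rose by 1.00 ± 0.13 on the log2 scale (SE, edgeR adjusted p = 0.00386). The junction gene CLDN5 (log2 change -0.18 ± 0.25, edgeR adjusted p = 0.862) and the endothelial gene PECAM1 (log2 change -0.72 ± 0.24, edgeR adjusted p = 0.228) were not called by edgeR. SELP, the adhesion molecule P-selectin that endothelium and platelets display to leukocytes, was at 1.51, 0.869, 0.866 and 1.19 CPM with budesonide, 1.64, 5.21, 64 and 18.3 CPM with surfactant alone and 0.552, 0.321, 0.439 and 0.681 CPM in unventilated lambs. Animals 049 and 051 carried the surfactant level, while animal 007 lay close to the budesonide animals. SELP fell by 4.32 ± 0.89 on the log2 scale (SE, edgeR adjusted p = 0.0382), and without surfactant animals 049 and 051 together it was -1.62 (edgeR adjusted p = 0.187). The SELP call was lost without surfactant animals 049 and 051, budesonide animals 031, 048, 050 and 054 and unventilated animals 057, 058, 060 and 061, each left out in turn (edgeR adjusted p = 0.053 to 0.124). NOSTRIN, a regulator of the traffic of endothelial nitric oxide synthase, averaged 9.66 ± 1.95 CPM with budesonide and 4.80 ± 0.8 CPM with surfactant alone (SD, n = 4 each), and NOSTRIN rose by 1.01 ± 0.18 (edgeR adjusted p = 0.0212). The NOSTRIN call was lost without surfactant animal 032 and budesonide animals 048 and 054, each left out in turn (edgeR adjusted p = 0.0501 to 0.0609), and without surfactant animals 049 and 051 together (log2 change 0.86, edgeR adjusted p = 0.145). VEGFA, the vascular growth factor, had log2 change -0.17 ± 0.18, edgeR adjusted p = 0.799.

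Transporters of organic anions and amino acids were among the separated genes. SLCO4A1, an organic anion transporter that also carries thyroid hormone, stood at 34.1, 37.8, 46.4 and 46.4 CPM with budesonide, 11.6, 9.86, 10.2 and 9.24 CPM with surfactant alone and 1.96, 4.30, 2.44 and 0.991 CPM in unventilated lambs. The surfactant values were near 10 CPM in every animal, and the budesonide values were at least 34.1 CPM. SLCO4A1 rose by 2.01 ± 0.26 on the log2 scale (SE, edgeR adjusted p = 0.00386). SLCO2B1, another organic anion transporter, moved the other way and was measured at 37, 30.9, 41.1 and 44.5 CPM with budesonide, 78.7, 74.5, 108 and 73 CPM with surfactant alone and 89.5, 112, 90.5 and 92.8 CPM in unventilated lambs. The budesonide animals lay below all others. SLCO2B1 fell by 1.12 ± 0.14 on the log2 scale (SE, edgeR adjusted p = 0.00386). SLC7A8, which carries neutral amino acids, was at 114, 123, 116 and 96.3 CPM with budesonide, 71.2, 62.3, 66 and 78.4 CPM with surfactant alone and 50.2, 36.8, 35.5 and 46 CPM in unventilated lambs and was the 1 gene called among 29 amino acid and solute transporters. SLC7A8 rose by 0.69 ± 0.12 on the log2 scale (SE, edgeR adjusted p = 0.0212). The SLC7A8 call was lost without surfactant animals 032 and 049 and budesonide animals 031, 048 and 050, each left out in turn (edgeR adjusted p = 0.0523 to 0.0648), and without surfactant animals 049 and 051 together (log2 change 0.75, edgeR adjusted p = 0.0712). PLA1A, a phospholipase of phosphatidylserine, stood at 77.8, 61.7, 68.5 and 89.2 CPM with budesonide, 33.7, 30.1, 29.7 and 39.3 CPM with surfactant alone and 8.28, 11.2, 8.02 and 8.30 CPM in unventilated lambs. It rose in steps across the 3 groups without overlap. PLA1A rose by 1.16 ± 0.14 on the log2 scale (SE, edgeR adjusted p = 0.00253). Among 27 genes of ion transport and water channels edgeR called 0, with 0 higher and 4 lower at an unadjusted p of 0.05, and DESeq2 called 1 lower.

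Some genes of Notch, BMP and Wnt signalling were called, where 0.591% of all genes were called higher and 0.387% lower. NOTCH1, the receptor that keeps neural progenitors undifferentiated, was measured at 23.5, 24.6, 21.5 and 24.8 CPM with budesonide, 44, 36.9, 48.2 and 31.6 CPM with surfactant alone and 73.3, 67.3, 67 and 69.9 CPM in unventilated lambs. The order from unventilated to surfactant to budesonide was downward without overlap. NOTCH1 fell by 0.77 ± 0.12 on the log2 scale (SE, edgeR adjusted p = 0.00806). ID1, a target of BMP signalling that blocks differentiation factors, was at 5.23, 5.10, 7.27 and 6.79 CPM with budesonide, 19.96, 15.6, 20.5 and 10.4 CPM with surfactant alone and 22.9, 29.6, 20.4 and 19.3 CPM in unventilated lambs. Surfactant animal 051 was the lowest of its group and still lay above all budesonide animals. ID1 fell by 1.44 ± 0.22 on the log2 scale (SE, edgeR adjusted p = 0.00819). GREM1, a secreted antagonist of BMPs, stood at 19.5, 21.7, 27.7 and 22.4 CPM with budesonide, 39.9, 41.1, 36.6 and 57.1 CPM with surfactant alone and 89.3, 107, 87.2 and 102 CPM in unventilated lambs. It fell in steps across the 3 groups. GREM1 fell by 0.93 ± 0.15 on the log2 scale (SE, edgeR adjusted p = 0.0101). ID1 and GREM1 were the 2 lower calls among 34 tested genes of TGF-beta and BMP signalling, of which 0 were higher, with a median log2 change of -0.27. The lower calls rose to 5 without surfactant animal 051 and were 4 without animals 049 and 051 together.

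DKK1, a secreted inhibitor that blocks the Wnt coreceptor LRP6, was measured at 12.7, 3.53, 7.22 and 2.70 CPM with budesonide, 0.303, 0.551, 0.202 and 0.936 CPM with surfactant alone and 0, 0.257, 0.689 and 0.433 CPM in unventilated lambs. The surfactant libraries held 3 to 15 counts and the budesonide libraries 43 to 219, so the level without budesonide rests on few counts. DKK1 rose by 3.69 ± 0.66 on the log2 scale (SE, edgeR adjusted p = 0.0236). The DKK1 call was lost without surfactant animals 007, 032 and 049 and budesonide animals 031 and 050, each left out in turn (edgeR adjusted p = 0.0537 to 0.0668), and without surfactant animals 049 and 051 together (log2 change 3.92, edgeR adjusted p = 0.11). LRP6 itself averaged 48 ± 6.09 CPM with budesonide and 30.5 ± 5.39 CPM with surfactant alone (SD, n = 4 each), and APCDD1, a membrane inhibitor of Wnt signals found in brain endothelium, averaged 209 ± 8.55 CPM with budesonide and 149 ± 17.1 CPM with surfactant alone (SD, n = 4 each). LRP6 rose by 0.66 ± 0.13 on the log2 scale (SE, edgeR adjusted p = 0.0355), and APCDD1 rose by 0.49 ± 0.09 (edgeR adjusted p = 0.0265). The LRP6 call was lost without surfactant animals 007, 032 and 051, budesonide animals 048, 050 and 054 and unventilated animal 061, each left out in turn (edgeR adjusted p = 0.055 to 0.107), and without surfactant animals 049 and 051 together (log2 change 0.63, edgeR adjusted p = 0.0905). The APCDD1 call was lost without surfactant animals 032 and 049 and budesonide animals 031, 048, 050 and 054, each left out in turn (edgeR adjusted p = 0.0578 to 0.0845), and without surfactant animals 049 and 051 together (log2 change 0.38, edgeR adjusted p = 0.18). These were the 3 higher calls among 43 tested Notch, Wnt and hedgehog genes, where NOTCH1 was the 1 lower call and the median log2 change was -0.13. NOTCH4, a Notch receptor of endothelium outside the rule for naming genes and chosen after its values were seen, rose by a log2 change of 0.64 ± 0.10 (SE, edgeR adjusted p = 0.0123), from 42.1 ± 4.95 to 65.6 ± 3.33 CPM (SD, n = 4 each). Its call held without each single library. It was lost without surfactant animals 049 and 051 together, where the log2 change was 0.60 (edgeR adjusted p = 0.0906).

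Among 49 tested extracellular matrix genes 2 were called lower and 0 higher, both sensitive to single animals. TNC, the matrix protein tenascin-C of progenitor zones, averaged 42.7 ± 10.8 CPM with budesonide and 78.9 ± 15 CPM with surfactant alone (SD, n = 4 each), and ADAMTS1, a protease of proteoglycans, averaged 12.8 ± 3.21 CPM with budesonide and 45.5 ± 31.5 CPM with surfactant alone (SD, n = 4 each). TNC fell by 0.89 ± 0.18 on the log2 scale (SE, edgeR adjusted p = 0.0353), and ADAMTS1 fell by 1.83 ± 0.39 (edgeR adjusted p = 0.0471). The ADAMTS1 ranges overlapped, with surfactant animal 049 at 90.1 CPM. Without surfactant animals 049 and 051 together both genes passed. The log2 change was then -1.57 for ADAMTS1 and -1.02 for TNC (edgeR adjusted p = 0.00795 and 0.0498). The TNC call was lost without surfactant animals 007, 032 and 051, budesonide animals 048, 050 and 054 and unventilated animals 060 and 061, each left out in turn (edgeR adjusted p = 0.0545 to 0.11). The ADAMTS1 call was lost without surfactant animals 007, 032 and 049, budesonide animals 031, 048, 050 and 054 and unventilated animals 057, 058, 060 and 061, each left out in turn (edgeR adjusted p = 0.0594 to 0.134). BHLHE41, a repressor in the clock, was the 1 call among 23 tested circadian genes, lower with log2 change -0.91 ± 0.19, edgeR adjusted p = 0.0397. The BHLHE41 call was lost without surfactant animals 007, 032 and 049, budesonide animals 048, 050 and 054 and unventilated animals 060 and 061, each left out in turn (edgeR adjusted p = 0.0501 to 0.124), and without surfactant animals 049 and 051 together (log2 change -0.82, edgeR adjusted p = 0.117).

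Some of the genes with the smallest p values belonged to none of the lists. LRRN1, a leucine-rich repeat membrane protein of neural tissue, was at 342, 371, 338 and 306 CPM with budesonide, 188, 153, 184 and 141 CPM with surfactant alone and 127, 137, 145 and 140.1 CPM in unventilated lambs. Surfactant and unventilated values overlapped, and the budesonide values lay above both. LRRN1 rose by 1.03 ± 0.10 on the log2 scale (SE, edgeR adjusted p = 0.000983). DGKA, the kinase that converts diacylglycerol to phosphatidic acid, stood at 104, 96.5, 86.1 and 109 CPM with budesonide, 44, 36.7, 43.2 and 48.4 CPM with surfactant alone and 21.8, 15.2, 21.3 and 21.2 CPM in unventilated lambs. Its 3 groups were separated. DGKA rose by 1.20 ± 0.12 on the log2 scale (SE, edgeR adjusted p = 0.000983). ASAP3, a GTPase-activating protein for ARF proteins, was measured at 8.42, 5.10, 6.75 and 7.23 CPM with budesonide, 19.5, 16.8, 20.3 and 16.8 CPM with surfactant alone and 34.7, 25.8, 28.8 and 29 CPM in unventilated lambs. It was lower in each step from unventilated to surfactant to budesonide. ASAP3 fell by 1.42 ± 0.15 on the log2 scale (SE, edgeR adjusted p = 0.00116).

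RFTN1, a protein of lipid rafts, was at 17.5, 24.3, 20.3 and 20.4 CPM with budesonide, 9.77, 6.92, 8.62 and 9.42 CPM with surfactant alone and 6.81, 6.61, 5.39 and 5.64 CPM in unventilated lambs. Budesonide values were all above 17 CPM and surfactant values all below 10 CPM. RFTN1 rose by 1.25 ± 0.14 on the log2 scale (SE, edgeR adjusted p = 0.00168). CRYBG3, a member of the beta-gamma crystallin family, stood at 68.7, 87.6, 67.1 and 68.5 CPM with budesonide, 24.1, 23.9, 40.6 and 28.3 CPM with surfactant alone and 16.9, 18.8, 16.2 and 16.2 CPM in unventilated lambs. Budesonide animal 048 was the highest of a group that lay wholly above the others. CRYBG3 rose by 1.32 ± 0.16 on the log2 scale (SE, edgeR adjusted p = 0.00253). STRIP2, a partner of striatin complexes, averaged 52.7 ± 4.59 CPM with budesonide and 30.2 ± 3.36 CPM with surfactant alone (SD, n = 4 each), and S100A16, a calcium-binding protein, averaged 28.6 ± 2.31 CPM with budesonide and 47.5 ± 4.93 CPM with surfactant alone (SD, n = 4 each). STRIP2 rose by 0.80 ± 0.10 on the log2 scale (SE, edgeR adjusted p = 0.00386), and S100A16 fell by 0.73 ± 0.11 (edgeR adjusted p = 0.00779). The S100A16 call held without each single library and was lost without surfactant animals 049 and 051 together, where the log2 change was -0.70 (edgeR adjusted p = 0.0645).

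Genes of low abundance with large changes completed the named set. PITX3, a homeobox factor of dopamine neurons and lens, was measured at 6.27, 7.36, 9.12 and 5.85 CPM with budesonide, 2.67, 1.78, 1.08 and 1.25 CPM with surfactant alone and 2.09, 0.899, 1.25 and 1.86 CPM in unventilated lambs. Its budesonide values did not overlap those of the other groups. PITX3 rose by 2.07 ± 0.31 on the log2 scale (SE, edgeR adjusted p = 0.00806), and without surfactant animals 049 and 051 together it was 1.68 (edgeR adjusted p = 0.0705). PI15, a secreted peptidase inhibitor, was at 17, 24, 17.7 and 15.9 CPM with budesonide, 5.88, 6.0, 6.33 and 5.37 CPM with surfactant alone and 1.47, 3.98, 1.19 and 2.35 CPM in unventilated lambs. Surfactant animals lay within 1 CPM of each other and budesonide animals far above. PI15 rose by 1.66 ± 0.27 on the log2 scale (SE, edgeR adjusted p = 0.0131), and without surfactant animals 049 and 051 together it was 1.65 (edgeR adjusted p = 0.0999). MEDAG, a gene of fat cell differentiation, averaged 7.36 ± 2.11 CPM with budesonide and 2.84 ± 0.718 CPM with surfactant alone (SD, n = 4 each), and C2H1orf64 averaged 5.48 ± 2.29 CPM with budesonide and 31 ± 23.5 CPM with surfactant alone (SD, n = 4 each). MEDAG rose by 1.37 ± 0.29 on the log2 scale (SE, edgeR adjusted p = 0.0471), and C2H1orf64 fell by 2.49 ± 0.44 (edgeR adjusted p = 0.022). The MEDAG call was lost without surfactant animals 007, 032, 049 and 051, budesonide animals 048, 050 and 054 and unventilated animals 058, 060 and 061, each left out in turn (edgeR adjusted p = 0.0548 to 0.141), and without surfactant animals 049 and 051 together (log2 change 1.61, edgeR adjusted p = 0.124). The C2H1orf64 call was lost without budesonide animals 031, 050 and 054, each left out in turn (edgeR adjusted p = 0.0646 to 0.0727), and without surfactant animals 049 and 051 together (log2 change -1.57, edgeR adjusted p = 0.0521).

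Cell classes other than microglia gave few or no calls. Of 32 tested genes of mature oligodendrocytes and myelin edgeR called 0, although 30 had a negative change and the list median was -0.72. These values include surfactant animal 051, which held 19500 CPM of myelin genes together, where budesonide animals held 2310 to 4850 CPM. The list median without that animal was not computed. MBP (log2 change -1.39 ± 0.70, edgeR adjusted p = 0.474) and MOG (log2 change -0.88 ± 0.59, edgeR adjusted p = 0.632) followed surfactant animal 051. Without that animal their log2 changes were 0.09 and 0.19, so that their sign turned. Of 16 tested precursor markers edgeR called 0, with 1 higher and 3 lower at an unadjusted p of 0.05 and DESeq2 calling 2 lower. The precursor genes PDGFRA (log2 change 0.28 ± 0.12, edgeR adjusted p = 0.386), OLIG2 (log2 change 0.27 ± 0.22, edgeR adjusted p = 0.724) and CSPG4 (log2 change -0.06 ± 0.15, edgeR adjusted p = 0.925) were not called. Of 19 astrocyte markers edgeR called 0, with 1 higher and 5 lower at an unadjusted p of 0.05, where GFAP had log2 change 0.08 ± 0.11, edgeR adjusted p = 0.847 and the water channel AQP4 log2 change -0.38 ± 0.12, edgeR adjusted p = 0.173. Of 20 tested reactive astrocyte genes 1 was called lower, OSMR, and 0 higher.

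Neuronal markers were level, with 0 of 38 called by edgeR, 0 higher and 1 lower at an unadjusted p of 0.05 and a median log2 change of -0.02. DCX had log2 change 0.19 ± 0.17, edgeR adjusted p = 0.743 and BDNF, a neurotrophin, log2 change 0.13 ± 0.35, edgeR adjusted p = 0.934. Of 22 tested progenitor genes 2 were called lower, NOTCH1 and TNC, and 0 higher, while SOX2, a factor of neural stem cells, had log2 change -0.21 ± 0.10, edgeR adjusted p = 0.424. Ependymal genes (25 tested), choroid plexus markers (11) and pericyte, smooth muscle and fibroblast markers (21) had 0 calls by edgeR, with 0, 0 and 1 higher and 0, 0 and 2 lower at an unadjusted p of 0.05. The summed choroid plexus markers ranged from 44.3 to 243 CPM with surfactant alone and from 68.5 to 195 CPM with budesonide. The part of ventricular tissue in the results was not tested.

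**Figure D5:**
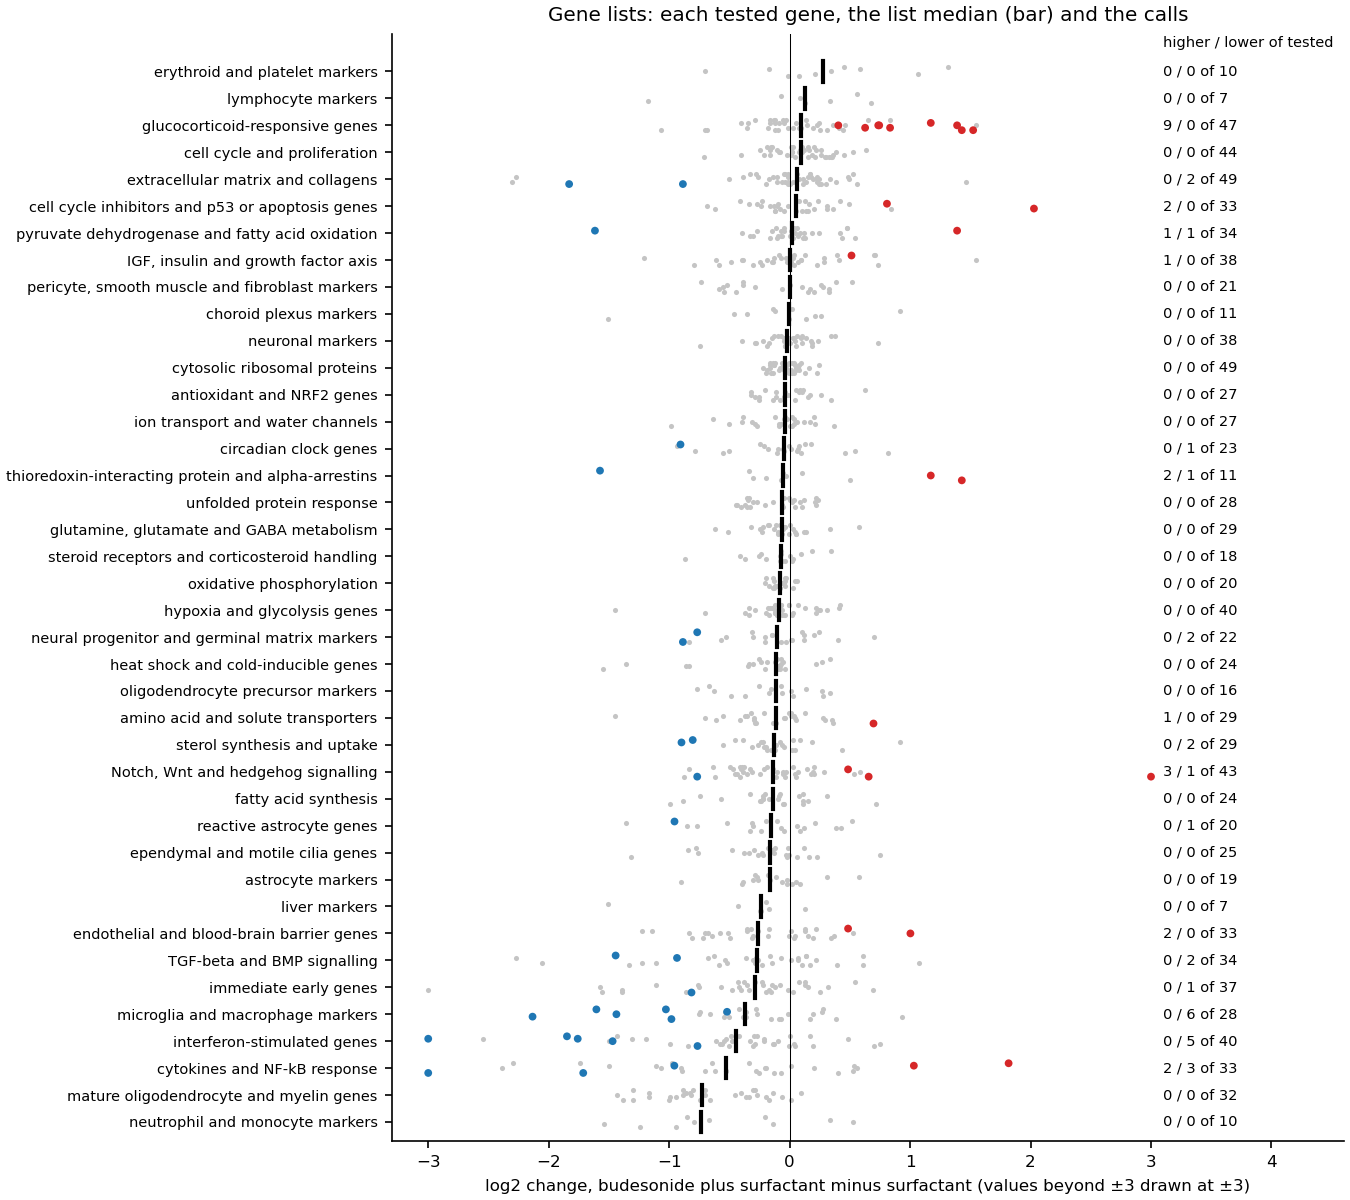
Log2 change (budesonide minus surfactant) of each tested gene in 40 gene lists, sorted by the list median (black bar), with genes called higher in red and lower in blue and their counts at the right. The glucocorticoid-responsive list has 9 higher calls, the microglia list 6 lower and the interferon list 5 lower, while the myelin list has a median of -0.72, with surfactant animal 051 included, and 0 calls.

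Liver libraries of the same 8 animals were compared to show where the change differed between tissues. In liver edgeR called 1994 genes for budesonide against surfactant (11.9%), 674 higher (4.01%) and 1320 lower (7.85%), of which 64 were called in the same direction in PVWM. Those 64 (33 higher and 31 lower in both) were 35.2% of the PVWM calls and 3.21% of the liver calls, and 3 genes were called in opposite directions. The difference between tissues in the change was called for 683 of 20010 genes (3.41%), of which 30 were among the PVWM calls. That count moved to 439, 453, 419 and 437 without the PVWM libraries of animals 051, 031, 048 and 054, and to 1476, 1342 and 422 without the liver libraries of animals 007, 051 and 031. ASAP3 fell by 1.42 on the log2 scale in PVWM and rose by 1.55 in liver, a difference of -2.97 (edgeR adjusted p = 6.28e-07). ARHGAP31, a GTPase-activating protein for RAC1 and CDC42, rose by 0.51 in PVWM with liver at -0.81, a difference of 1.31 (edgeR adjusted p = 0.000584). SERTAD2, a transcriptional coregulator, fell by 0.47 in PVWM with liver at 0.74, a difference of -1.21 (edgeR adjusted p = 0.000761). In ID1 the PVWM change of -1.44 stood against 0.58 in liver, a difference of -2.02 (edgeR adjusted p = 0.00293).

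In SLC7A8, NOSTRIN, LONRF3 and MX1 the change had the same sign in both tissues and another size. SLC7A8 changed by 0.69 in PVWM and 3.82 in liver, a difference of -3.13 (edgeR adjusted p = 2.11e-05). NOSTRIN changed by 1.01 and 3.12, a difference of -2.12 (edgeR adjusted p = 0.00271). LONRF3, a RING finger protein, changed by 0.69 and 2.47, a difference of -1.78 (edgeR adjusted p = 0.00526). MX1 changed by -0.76 in PVWM and -2.87 in liver, a difference of 2.11 (edgeR adjusted p = 0.0138). The growth factor PDGFC (0.74 and -0.47), the desmosomal protein PKP2 (1.12 and -0.46), BTG1 (0.81 and -0.18) and LRP6 (0.66 and -0.77) were called in PVWM and not in liver, with differences of 1.20 (edgeR adjusted p = 0.00956), 1.57 (edgeR adjusted p = 0.0196), 0.98 (edgeR adjusted p = 0.0192) and 1.42 (edgeR adjusted p = 0.00894). With the 16 ventilated libraries alone the differences of BTG1 and PKP2 lost their call (edgeR adjusted p = 0.054 and 0.077). With the animal as a replicate block in these 16 libraries, which pairs the tissues of each animal, the differences of BTG1, LONRF3, LRP6, MX1, PDGFC, PKP2 and SERTAD2 lost their call (edgeR adjusted p = 0.119, 0.0539, 0.0667, 0.0722, 0.0621, 0.0753 and 0.0517), and those of ASAP3, SLC7A8, ARHGAP31, ID1 and NOSTRIN kept it. In the fit of PVWM alone, the ARHGAP31 call was lost without surfactant animals 007, 032, 049 and 051, budesonide animals 031, 048, 050 and 054 and unventilated animal 060, each left out in turn (edgeR adjusted p = 0.0516 to 0.121), and without surfactant animals 049 and 051 together (log2 change 0.40, edgeR adjusted p = 0.236). The SERTAD2 call was lost without surfactant animal 049 and budesonide animals 031, 048, 050 and 054, each left out in turn (edgeR adjusted p = 0.0628 to 0.0837), and without surfactant animals 049 and 051 together (log2 change -0.39, edgeR adjusted p = 0.18). The LONRF3 call was lost without budesonide animals 031, 048 and 050, each left out in turn (edgeR adjusted p = 0.0704 to 0.08), and without surfactant animals 049 and 051 together (log2 change 0.63, edgeR adjusted p = 0.11). The PDGFC call was lost without surfactant animals 007, 032, 049 and 051, budesonide animals 031, 048, 050 and 054 and unventilated animals 058 and 061, each left out in turn (edgeR adjusted p = 0.0508 to 0.119), and without surfactant animals 049 and 051 together (log2 change 0.81, edgeR adjusted p = 0.148). The PKP2 call was lost without surfactant animals 007 and 032 and budesonide animals 031, 048, 050 and 054, each left out in turn (edgeR adjusted p = 0.0537 to 0.0919), and without surfactant animals 049 and 051 together (log2 change 1.00, edgeR adjusted p = 0.0725).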

How the data were processed

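Messenger RNA was sequenced from periventricular white matter and liver of lambs, per the labels after Trizol extraction and polyA selection, as 75-base paired reads. The authors deposited raw counts per gene for each library. Bowtie2, featureCounts and edgeR are named, with no version, per the submitters' processing notes. The genome build and the treatment of strand and of reads matching several genes are not given in the sources used here. Each table held 27716 entries, of which 16572 carried a gene symbol (508 locus numbers were named through the RefSeq gene table of assembly ARS-UI_Ramb_v3.0), and dates stood in place of 23 symbols.

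All 12 PVWM libraries (3 groups) were fitted together in R 4.3.3 with edgeR 4.0.16 (filterByExpr, TMM scaling, robust quasi-likelihood F test), and genes with a Benjamini-Hochberg adjusted p under 0.05 over 18616 genes were called. CPM used TMM-scaled library sizes. Each standard error was derived from the fitted log2 change and its F statistic (change over root F). The common coefficient of biological variation was 0.197. The tissue difference was fitted on all 24 libraries and 6 groups. Single values were compared by exact permutation. No 2 PVWM libraries of the same group agreed within sampling noise (chi-square per gene of 8.75 or more). Pairs from different groups and liver libraries were not compared in this way. Alternatives were median-ratio scaling, no count filter, DESeq2 1.42.0, fits without unventilated libraries (with and without sex), no robust estimation, each library left out, and, added after seeing the data, surfactant animals 049 and 051 left out. The edgeR steps were tested on simulated data.

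Named genes were up to 12 called genes per direction with the largest change and the 10 per direction with the smallest p (each with a symbol, a mean of at least 1 CPM and ventilated groups that did not overlap), up to 4 called members per direction of each of 40 lists, 42 genes to be named whatever their result, and 6 per direction with the smallest p for the tissue difference. A few of these genes are not reported here. The members and lists were chosen with earlier results of these data known. Libraries of liver and PVWM with 1 animal number were taken as paired. As deviations from their groups, the tissues of 8 ventilated lambs had within-animal correlations of 0.0799 to 0.198, and different animals a median of -0.015.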

Additional observations from a re-analysis of the deposited data

Results flagged for a closer look

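For 123 genes the 4 libraries of each PVWM group were searched for 1 library whose gap to its nearest neighbour took up more of the group's range than Dixon's critical value for 4 samples. This held in 23 of 369 sets, 6.23%, and chance flags about 1 in 20 groups (5%). In surfactant animal 051, MBP at 5390 CPM stood far above the other surfactant libraries (303 to 942 CPM). Surfactant animal 049 was highest for IL1B (16.5 CPM against 1.59 to 3.99), CSF1 (45.6 against 19.8 to 22.7) and SLCO2B1 (108 against 73.0 to 78.7), and lowest for ARID4B (34.9 against 43.4 to 44.1). Surfactant animal 032 was lowest for LAPTM5 (53 CPM) and SGK1 (44.9 CPM), and animal 007 highest for TNF (6.49 CPM). With budesonide, animal 048 was highest for CRYBG3 (87.6 CPM) and IFI16 (1.51 CPM) and lowest for PER1 (101 CPM), animal 031 lowest for ANGPTL4 (5.98 CPM) and PLAU (5.63 CPM), animal 054 lowest for DUSP1 (68.2 CPM), and animal 050 lowest for MFSD2A (15.6 CPM). Among unventilated lambs, animal 058 was highest for ADAMTS1 (14.8 CPM), DIO2 (103 CPM), OCLN (19.3 CPM), PLA1A (11.2 CPM) and SLCO2B1 (112 CPM) and lowest for DGKA (15.2 CPM), animal 057 lowest for IFI44L (1.17 CPM), and animal 060 lowest for MBP (254 CPM).

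The budesonide effect differed between PVWM and liver, by the edgeR test of the difference over 24 libraries, at 12 genes named for this. The log2 change was higher in PVWM than in liver by 1.31 for ARHGAP31, 1.42 for LRP6, 1.20 for PDGFC, 2.11 for MX1, 0.98 for BTG1 and 1.57 for PKP2. The difference, PVWM minus liver, was -2.97 for ASAP3, -3.13 for SLC7A8, -1.21 for SERTAD2, -2.12 for NOSTRIN, -2.02 for ID1 and -1.78 for LONRF3. With the 16 ventilated libraries alone, the differences at BTG1 and PKP2 missed the threshold. With the animal as a block in these 16 libraries, those at LRP6, PDGFC, MX1, BTG1, PKP2, SERTAD2 and LONRF3 missed the threshold.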

How the results depend on the processing

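The 182 calls (110 higher, 72 lower) became 562 (295 and 267) by DESeq2, 69 (50 and 19) with the 8 ventilated libraries only, 47 (36 and 11) with sex as a covariate in addition, and 84 (57 and 27) without surfactant animals 049 and 051. They numbered 66 to 207 when single libraries were left out (45 to 133 higher, 19 to 79 lower), and stayed within 1.5 times under median-ratio scaling, no count filter and no robust estimation. Tissue differences, 683 in the fit of 24 libraries, numbered 279 with the 16 ventilated libraries only, 121 with the replicate block for the animal, which pairs tissues, in those 16 libraries, and 419 to 1476 when single libraries were left out. Of 94 called genes named, 23 passed under all 19 alternatives, 71 missed the threshold under at least 1 and 0 reversed. With the 8 ventilated libraries only 53 of them missed it, and with sex in addition 61. The log2 change of genes not called turned sign without animals 049 and 051 for ANGPTL4 (0.062), BDNF (-0.34), CDKN1A (0.42), NR3C1 (0.0070), SGK1 (0.065), VEGFA (0.053), and when single libraries were left out for BDNF (-0.14 to 0.50), CDKN1A (-0.63 to 0.22), CSPG4 (-0.18 to 0.050), GLUL (-0.062 to 0.17), KLF9 (-0.042 to 0.30), MBP (-1.74 to 0.090), MOG (-1.22 to 0.19), SGK1 (-0.23 to 0.017), VEGFA (-0.27 to 0.073), each with the range over the libraries left out. The cause was not tested. With 4 animals a group and 14929261 to 17532605 counts per library, IL6, CXCL8 and HSD11B2 were too low to be tested, and the values of genes near the filter rest on few counts.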

Other observations

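The genes named under this heading were chosen after their values were seen. The plasminogen activators were lower with budesonide: PLAT, the tissue-type activator, averaged 55.7 ± 2.96 CPM with budesonide and 149 ± 65.2 CPM with surfactant alone (SD, n = 4 each), and PLAU, the urokinase-type activator, averaged 6.56 ± 0.624 CPM with budesonide and 10.9 ± 2.76 CPM with surfactant alone (SD, n = 4 each). PLAT fell by 1.42 ± 0.23 on the log2 scale (SE, edgeR adjusted p = 0.0139), and PLAU fell by 0.73 ± 0.15 (edgeR adjusted p = 0.0426). Surfactant animals 049 and 051 held the most PLAT, 232 and 169 CPM, and without these animals its log2 change was -0.80 (edgeR adjusted p = 0.00795). The PLAT call was lost without budesonide animals 031, 048 and 050, each left out in turn (edgeR adjusted p = 0.0513 to 0.0542). The PLAU call was lost without surfactant animals 032, 049 and 051, budesonide animals 031, 048, 050 and 054 and unventilated animals 057, 058, 060 and 061, each left out in turn (edgeR adjusted p = 0.0554 to 0.122), and without surfactant animals 049 and 051 together (log2 change -0.47, edgeR adjusted p = 0.173). Receptors of the interleukin 6 family changed in both directions: LIFR, a signalling receptor of leukaemia inhibitory factor, rose by a log2 change of 0.90 ± 0.17 (SE, edgeR adjusted p = 0.0301), from 124 ± 31.7 to 232 ± 16.4 CPM (SD, n = 4 each), while CNTFR, which binds ciliary neurotrophic factor, had log2 change -0.47 ± 0.09, edgeR adjusted p = 0.0355. The LIFR call was lost without surfactant animals 032 and 051 and budesonide animals 031, 048, 050 and 054, each left out in turn (edgeR adjusted p = 0.0606 to 0.0837), and without surfactant animals 049 and 051 together (log2 change 0.90, edgeR adjusted p = 0.124). The CNTFR call was lost without surfactant animals 007, 032, 049 and 051, budesonide animals 031, 050 and 054 and unventilated animals 058 and 061, each left out in turn (edgeR adjusted p = 0.0521 to 0.116), and without surfactant animals 049 and 051 together (log2 change -0.51, edgeR adjusted p = 0.113). DIO2, the deiodinase of astrocytes that activates thyroid hormone, was at 561, 492, 747 and 407 CPM with budesonide, 159, 147, 284 and 310.1 CPM with surfactant alone and 54.9, 103, 61.7 and 58.1 CPM in unventilated lambs. All groups were separated. DIO2 rose by 1.30 ± 0.28 on the log2 scale (SE, edgeR adjusted p = 0.0496). The DIO2 call was lost without surfactant animals 007, 032 and 049, budesonide animals 031, 048, 050 and 054 and unventilated animals 057, 060 and 061, each left out in turn (edgeR adjusted p = 0.0541 to 0.129).

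NIPBL, the cohesin loader, was at 95.1, 101, 100.2 and 100 CPM with budesonide, 73.7, 70.6, 78 and 70.3 CPM with surfactant alone and 64, 70.5, 71.1 and 68.1 CPM in unventilated lambs. The 4 budesonide values lay within a few CPM of each other and above all others. NIPBL rose by 0.44 ± 0.06 on the log2 scale (SE, edgeR adjusted p = 0.00775). SETD7, a lysine methyltransferase, rose by a log2 change of 0.87 ± 0.12 (SE, edgeR adjusted p = 0.00605), from 261 ± 45.7 to 478 ± 51.5 CPM (SD, n = 4 each). Both calls held when any single library was left out, and both missed the threshold with ventilated libraries alone and sex as a covariate (edgeR adjusted p = 0.0534 and 0.0531). AFF1, of the super elongation complex, HEXIM1, an inhibitor of the elongation factor P-TEFb, and ASXL2, ARID4B, CHD7 and JMJD1C, regulators of chromatin, had log2 changes of 0.90, 0.70, 0.54, 0.44, 0.51 and 0.44 (edgeR adjusted p = 0.0246, 0.0274, 0.0246, 0.0333, 0.0403 and 0.0477). The AFF1 call was lost without surfactant animals 032 and 051 and budesonide animals 031, 048 and 050, each left out in turn (edgeR adjusted p = 0.0537 to 0.0727). The HEXIM1 call was lost without surfactant animals 007 and 032 and budesonide animals 031, 050 and 054, each left out in turn (edgeR adjusted p = 0.0555 to 0.0825). The ASXL2 call was lost without surfactant animal 032 and budesonide animals 048, 050 and 054, each left out in turn (edgeR adjusted p = 0.0555 to 0.077), and without surfactant animals 049 and 051 together (log2 change 0.52, edgeR adjusted p = 0.0549). The ARID4B call was lost without surfactant animals 032 and 049, budesonide animals 031, 048, 050 and 054 and unventilated animal 061, each left out in turn (edgeR adjusted p = 0.0545 to 0.101), and without surfactant animals 049 and 051 together (log2 change 0.36, edgeR adjusted p = 0.133). The CHD7 call was lost without surfactant animals 007, 032, 049 and 051, budesonide animals 031, 048, 050 and 054 and unventilated animals 058 and 061, each left out in turn (edgeR adjusted p = 0.0544 to 0.124), and without surfactant animals 049 and 051 together (log2 change 0.39, edgeR adjusted p = 0.286). The JMJD1C call was lost without surfactant animals 007, 032, 049 and 051, budesonide animals 031, 050 and 054 and unventilated animals 058, 060 and 061, each left out in turn (edgeR adjusted p = 0.0513 to 0.121), and without surfactant animals 049 and 051 together (log2 change 0.42, edgeR adjusted p = 0.232).

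Outside the endothelial list, CD93, a receptor of endothelium and myeloid cells, fell from 34.3 ± 8.87 to 15.5 ± 3.66 CPM (SD, n = 4 each), and SEMA3G, an endothelial semaphorin, fell from 17.6 ± 6.14 to 6.79 ± 1.98 CPM (SD, n = 4 each). CD93 fell by 1.15 ± 0.20 on the log2 scale (SE, edgeR adjusted p = 0.0195), and SEMA3G fell by 1.37 ± 0.24 (edgeR adjusted p = 0.0215). The CD93 call was lost without budesonide animals 031, 048 and 050, each left out in turn (edgeR adjusted p = 0.0516 to 0.0724), and with the 8 ventilated libraries alone (edgeR adjusted p = 0.0674). The SEMA3G call was lost without budesonide animals 048 and 050, each left out in turn (edgeR adjusted p = 0.0515 to 0.0739), and with the 8 ventilated libraries alone (edgeR adjusted p = 0.0892). MS4A7, a macrophage gene, had log2 change -1.17 ± 0.25, edgeR adjusted p = 0.0489, and IFNGR1, a chain of the interferon gamma receptor, had log2 change 0.48 ± 0.10, edgeR adjusted p = 0.0355. The MS4A7 call was lost without surfactant animals 007, 032, 049 and 051, budesonide animals 031, 048 and 050 and unventilated animals 058, 060 and 061, each left out in turn (edgeR adjusted p = 0.0508 to 0.135), and without surfactant animals 049 and 051 together (log2 change -1.34, edgeR adjusted p = 0.1). The IFNGR1 call was lost without surfactant animals 007, 032 and 049, budesonide animals 031, 048, 050 and 054 and unventilated animal 061, each left out in turn (edgeR adjusted p = 0.0579 to 0.106), and without surfactant animals 049 and 051 together (log2 change 0.58, edgeR adjusted p = 0.069). SFRP5, a secreted inhibitor of Wnt ligands, was at 14.3, 18.4, 16.1 and 12.3 CPM with budesonide, 5.58, 5.27, 5.73 and 7.80 CPM with surfactant alone and 3.19, 2.44, 3.51 and 2.11 CPM in unventilated lambs, and USP53, found at tight junctions, rose by a log2 change of 1.17 ± 0.16 (SE, edgeR adjusted p = 0.0053), from 20.7 ± 5.09 to 46.6 ± 4.18 CPM (SD, n = 4 each). Every budesonide value of both genes lay above every surfactant value, and both calls held in every refit. TACC1, a centrosomal protein, rose by a log2 change of 0.54 ± 0.08 (SE, edgeR adjusted p = 0.00567), from 237 ± 20.6 to 344 ± 15.6 CPM (SD, n = 4 each). SLC18A2, the vesicular monoamine transporter, rose by a log2 change of 1.19 ± 0.25 (SE, edgeR adjusted p = 0.0482), from 3.20 ± 1.37 to 7.32 ± 0.447 CPM (SD, n = 4 each). The SLC18A2 call was lost without surfactant animals 032, 049 and 051, budesonide animals 031, 048, 050 and 054 and unventilated animals 057, 058, 060 and 061, each left out in turn (edgeR adjusted p = 0.0532 to 0.123), and without surfactant animals 049 and 051 together (log2 change 0.83, edgeR adjusted p = 0.229).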
